A study of Homo sapiens with 6 samples.

Results

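The 10 genes described here encode cytoplasmic intermediate filament proteins: the keratins KRT8, KRT18, KRT19 and KRT10, vimentin (VIM), nestin (NES), the neurofilament subunits NEFL, NEFM and NEFH, and alpha-internexin (INA). They were chosen by name as a family, with earlier results of these data known. All 10 were found among the 19922 genes that both deposited tables hold. The cells were HEK293A, a derivative of the human embryonic kidney line HEK293, in which the study examined UBE2A and UBE2B, the human RAD6 ubiquitin-conjugating enzymes, as candidate factors in mechanotransduction and contact inhibition. The 3 knockdown libraries came from cells given siRNAs against UBE2A and UBE2B at 25 uM each, 50 uM in total, and the 3 control libraries from cells given vehicle, all at 48 h. The labels name no non-targeting siRNA for the controls, so a general response to siRNA cannot be told apart from the knockdown. All groups share 1 cell line, and the labels do not say whether replicates were separate cultures, so the spread that p-values measure, between libraries, may be technical.

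Intermediate filaments are rope-like polymers that give cells tensile strength. Keratins are obligate partners: a type I chain, such as KRT18, KRT19 or KRT10, pairs with a type II chain, such as KRT8, and KRT8 with KRT18 forms the filaments of simple epithelia, kidney tubules among them. Vimentin builds the filaments of mesenchymal cells and of most cultured lines, while nestin marks neural and other progenitors and polymerises with vimentin. In neurons, NEFL is the core neurofilament subunit onto which NEFM and NEFH assemble, and INA joins them. HEK293 cells are known to carry both epithelial and neuronal transcripts, and filament genes are among the usual markers of both.

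All members end their central rod with a stretch named the intermediate filament signature, and its coding letters are shown as a feature that the family shares. The stretch was found once in each of the 10 members, in the longest reading frame of 1 GENCODE 29 transcript per gene. It is printed 5′ to 3′ on the coding strand for 5 members, with capitals for the 13 of 27 bases that are the same in all 5.
KRT19: aTtgccaCcTACcGcAgcCTgCTcGAg
KRT10: aTtcaaaCcTACcGcAgcCTgCTaGAa
NEFH: aTagccgCtTACaGaAaaCTcCTgGAa
INA: aTagcagCtTACaGgAaaCTgCTgGAa
NES: gTggccaCgTACaGgAccCTcCTgGAg

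Over these 27 bases the type I keratins KRT19 and KRT10 matched at 22 positions, the neuronal genes NEFH and INA at 24, and KRT10 with NES, as with NEFH, at 15. NES matched KRT19 at 19 positions, as it did NEFH, and INA at 18, so the stretch did not set NES with the neuronal genes. Stretches shared between genes bear on the counts. Of the 50-base words in the chosen KRT8 transcript, 39.7% also occurred in transcripts of other GENCODE 29 genes, and for KRT18 the share was 35.1%. GENCODE names 50 pseudogenes after KRT8 and 68 after KRT18. The share was 2.59% for NEFH, 1.79% for KRT19, 0.152% for NEFM and 0 for KRT10, VIM, NEFL, NES and INA. How the deposited counts treated reads that fit several places is not given in the sources used here, so the counts of KRT8 and KRT18 are uncertain in level.

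Each library held 10887217 to 14564624 counted reads, of which the 10 genes took 0.150% to 0.199%. The libraries came in 2 tables: the first holds replicates 1 and 2 of each group, and the second holds 1 control and 1 knockdown library without a replicate number. More genes differed between the tables (38.2% at an edgeR adjusted p under 0.05) than between the groups (2.47%), and the table was a term in the test. The first principal component held 56.1% of the variance, and its relation to the table was not tested. The siRNA targets fell, UBE2A by 0.93 and UBE2B by 0.30 on the log2 scale (edgeR adjusted p = 1.64e-12 and 0.0127).

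At baseline, HEK293A cells carried keratin, vimentin and 1 neurofilament transcript together. Levels are given as the deposited FPKM, counted reads scaled by gene length and library total, since raw counts cannot be compared between genes of different length. In the 3 controls, 7 of the 10 genes stood above 1 FPKM in each library. KRT8, the type II keratin, led with 164, 175 and 160 FPKM in control replicates 1 and 2 and the second table's control (mean 167 ± 7.92, SD, n = 3), and ranked 116 among the 19922 shared genes. KRT18, its type I partner, had 91.3, 93.8 and 65.0 FPKM in the same order (83.3 ± 16.0). The second table's library was the low one for KRT18, and even it stood above every control value of the genes next in order.

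NEFL, the core subunit of neuronal filaments, came next in the family, with 52.8, 49.2 and 53.7 FPKM (51.9 ± 2.36, SD, n = 3). KRT19, a small type I keratin of simple epithelia and ducts, had 38.7, 38.2 and 57.6 FPKM (44.8 ± 11.1), and its range overlapped that of NEFL. VIM followed with 30.4, 28.6 and 33.0 FPKM (30.7 ± 2.21), below both. NEFL transcript in an embryonic kidney line thus stood at the level of a simple-epithelial keratin and above VIM on this scale.

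KRT10, a type I keratin of cornified skin, and NES were lower, at 9.03 ± 1.97 and 8.19 ± 1.35 FPKM (SD, n = 3), with overlapping ranges of 6.90 to 10.8 and 7.14 to 9.72. The partners of NEFL were low. NEFM had 0.434, 0.406 and 0.389 FPKM in the controls, from 23, 20 and 16 reads. INA rested on 12, 10 and 3 control reads, 0.187 ± 0.0926 FPKM, and NEFH on 8, 7 and 4 reads, 0.125 ± 0.0276 FPKM. The INA and NEFH ranges overlapped each other and lay below that of NEFM. A count of 3 reads, taken as the floor, was worth 0.206 to 0.276 CPM, the reads scaled by library total alone. NEFL exceeded NEFM by 121 to 138 times per length in the controls, so the neurofilament transcripts consisted almost wholly of the light chain.

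**Figure D1:**
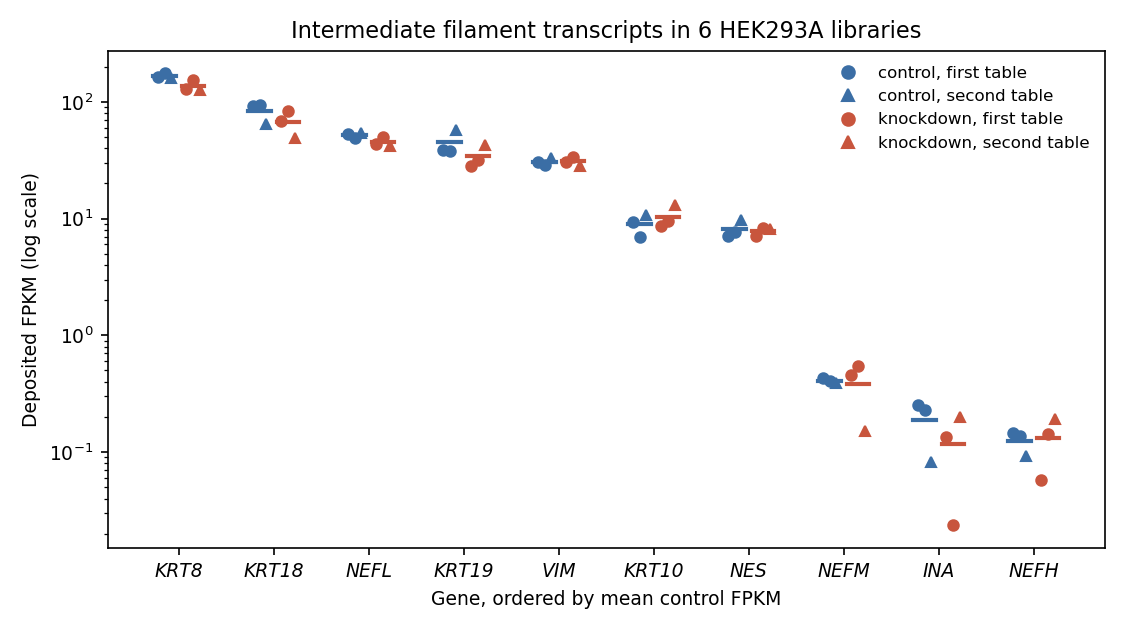
Deposited FPKM of the 10 filament genes on a log scale, 1 point per library, with circles for the first table, triangles for the second and a bar for the mean of each group. Control means ran from 167 FPKM for KRT8 to 0.125 FPKM for NEFH, and NEFM, INA and NEFH sat below 1 FPKM in each library.

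The order within the family depends on the gene length used. The deposited lengths were the same in both tables for all 10 members, and how they were set is not given in the sources used here. For KRT8 the deposited length was 6881 bases, while 1 chosen coding transcript of GENCODE 29 had 1755; for VIM the lengths were 5176 and 1868, and for NEFL 3940 and 4082. With the transcript length in place of the deposited one, an alternative chosen after seeing the data, the control means in FPKM were 653 ± 31.1 for KRT8, 180 ± 34.5 for KRT18, 85.0 ± 6.13 for VIM, 75.4 ± 18.6 for KRT19 and 50.1 ± 2.27 for NEFL (SD, n = 3). VIM and KRT19 then stood above NEFL, which with the deposited length had stood above VIM and had overlapped KRT19. KRT8 and KRT18 kept the first places, and NEFM, INA and NEFH the last, under both lengths.

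Other keratins were mostly silent. Of 26 further type I keratin genes, 15 had 0 reads in the 3 controls and 1 stood above 1 FPKM in each of them. That gene was KRT17, a keratin of basal and stressed epithelia, at 8.84 ± 1.37 FPKM (SD, n = 3); KRT222 came next at 0.431. Of 25 further type II genes 16 had 0 control reads and 0 passed 1 FPKM, with KRT80 at 0.610 and KRT86 at 0.0864 FPKM. KRT8 was thus the one type II chain above 1 FPKM in the controls, beside 4 type I chains there: KRT18, KRT19, KRT10 and KRT17. Among 6 other cytoplasmic filament genes, SYNM (synemin) had 6.67 FPKM and BFSP1 (filensin) 2.76, and DES, PRPH, GFAP and BFSP2 had mean levels below 1 FPKM.

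Marker lists showed genes of several identities beside the filaments. Of 20 epithelial genes 5 stood above 1 FPKM in each control, led by the membrane proteolipid gene MAL2 (11.1) and the epithelial splicing factor gene ESRP2 (7.12). The others to pass were SPINT1 (6.62), OCLN (4.185) and AP1M2 (3.24). The epithelial genes CDH1 and EPCAM, named like these after their values were seen, had 0.439 and 0.230 FPKM. The epithelial regulator GRHL2 had 0 reads in the controls. Of 24 neural genes 12 passed 1 FPKM, led by UCHL1, a neuronal deubiquitinase, at 225 ± 7.10 FPKM and DPYSL3 at 15.8. MAP2, a dendrite protein gene, had 2.21 FPKM. Of the same list, ENO2, NCAM1 and GAP43 had 13.8, 4.35 and 2.55 FPKM. The neuronal gene STMN2 had 0 control reads, and DCX, ELAVL4 and TUBB3 had 0.00690, 0.00626 and 0.0952 FPKM. The neural genes other than UCHL1 and DPYSL3, GRHL2, the filament genes below 1 FPKM, and the kidney genes other than SIX2 were also named after their values were seen.

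The label gives embryonic kidney as the source. Of 21 kidney genes 5 passed 1 FPKM in each control, among them SIX2 (3.99), EMX2, LHX1 and WT1, regulators of the developing kidney. The tubule genes UMOD and CDH16 had 0 reads in the controls. Of 15 mesenchymal genes 10 passed 1 FPKM, led by FN1 (fibronectin, 19.9) and CDH2 (N-cadherin, 10.9). Of 14 adrenal chromaffin and sympathetic genes 1 passed, GATA3 (4.21), with PNMT second at 1.75. Of 8 blood and endothelial genes 0 passed, with VWF at 0.446 FPKM. Among 20 filament linker and desmosome genes 16 passed, led by PNN (54.8) and DSP (desmoplakin, which ties keratins to desmosomes, 35.6).

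**Figure D2:**
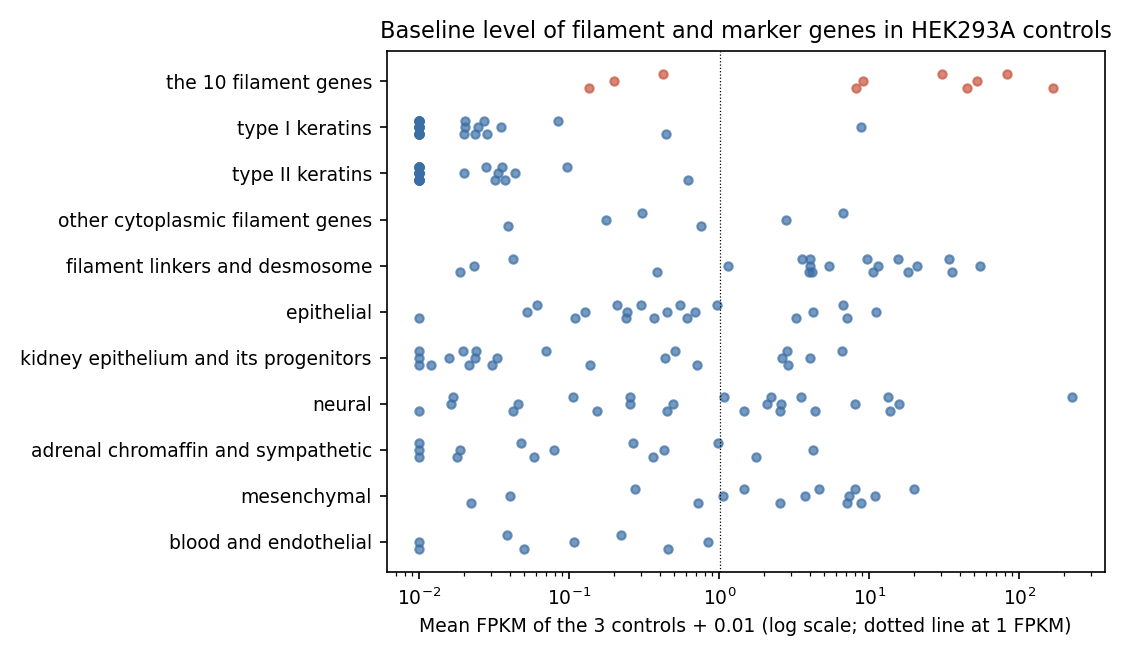
Mean FPKM of the 3 controls, with 0.01 added for a log axis, for the 10 filament genes and for each gene of the marker lists, 1 point per gene; points at the left edge have 0 reads in the controls. The filament genes divide into 7 above 1 FPKM and 3 below it, and the keratin lists, which hold the other keratins, have 1 gene above that line.

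After knockdown the simple-epithelial keratins KRT8, KRT18 and KRT19 and the neurofilament gene NEFL fell, while no tested member rose. With the table as a term, edgeR tested 8 of the 10 genes, and 4 passed an adjusted p of 0.05, all lower. The NEFL call was the less stable one. Of 13 alternatives beside a fit of the group alone, NEFL passed in 7, and KRT8, KRT18 and KRT19 passed in all 13. Of all 13629 genes tested, 1.83% were called lower and 0.638% higher. Of the 8 tested members 7 had a negative log2 fold change, as had 49.4% of all genes. The median log2 fold change was -0.16 over the 8 members and 0.00 over all genes. Since the members were chosen with earlier results of these data known, these contrasts with all genes are a description only. INA and NEFH did not reach the minimum count of the test, and NEFM, KRT10, VIM and NES did not pass. These are bulk libraries, in which fewer cells expressing a gene and less RNA per cell cannot be told apart.

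KRT8 (ENSG00000170421, chromosome 12, 52897187 to 52949954 on hg38, minus strand) had 1132, 1227 and 1108 CPM in control replicates 1 and 2 and the second table's control. These CPM are scaled by TMM factors, which adjust library totals for composition. In knockdown replicates 1 and 2 and the second table's knockdown it had 885, 1062 and 856 CPM. All 3 knockdown libraries lay below all 3 controls, which held for 3.74% of the genes tested, with 3.96% the other way. The log2 fold change was -0.31 (standard error 0.06, edgeR adjusted p = 5.54e-04), a change of -19.3%, with -0.28 within the first table and -0.37 within the second.

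KRT18 (ENSG00000111057, chromosome 12, 52948871 to 52952906, plus strand) had 281, 293 and 200 CPM in the controls. After knockdown it had 210, 256 and 147 CPM, in the same order. The pooled groups overlapped, since the second table's control was below the first table's knockdowns, but within each table every knockdown was below every control. The log2 fold change was -0.34 (standard error 0.06, edgeR adjusted p = 2.92e-04), and it was -0.31 and -0.44 within the first and the second table. KRT8 and KRT18 lie head to head and overlap by 1084 bases in the deposited coordinates. No strand setting of the counting is given in the sources used here, so reads from that overlap cannot be told apart. The same holds for the genes that GENCODE 29 places across other members: TMEM99 over KRT10, VIM-AS1 and AL133415.1 over VIM, AC107373.2 over NEFL, AF106564.1 over NEFM and AC000035.1 over NEFH; MIR6841 lies within NEFL on its own strand.

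KRT19 (ENSG00000171345, chromosome 17, 41523617 to 41528308, minus strand) lies on another chromosome and overlaps no annotated gene in GENCODE 29. It had 90.7, 90.8 and 135 CPM in the controls, and 65.1, 74.5 and 98.1 CPM after knockdown. Here the second table's libraries were the high ones, and within each table the knockdowns again lay below the controls. Its log2 fold change of -0.41 (standard error 0.06, edgeR adjusted p = 4.68e-05), a change of -24.7%, was the lowest of the 8, and within the tables it was -0.38 and -0.46. KRT8, KRT18 and KRT19 were the 3 members with each knockdown below each control of its table, as were 13.9% of all genes tested, with 12.1% above in each table.

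NEFL (ENSG00000277586, minus strand) had 209, 197 and 213 CPM in the controls, and 171, 198 and 164 CPM after knockdown. Knockdown replicate 2 was level with control replicate 2, and the other knockdown libraries were below all controls. The log2 fold change was -0.22 (standard error 0.06, edgeR adjusted p = 0.0381), a change of -13.9%, with -0.14 and -0.38 within the tables. The call ended without control replicate 2 (edgeR adjusted p = 0.0564) and without knockdown replicate 1 (0.302). It ended also when the second table's control (0.457) or its knockdown (0.480) was left out, at a log2 fold change of -0.14 in both cases. The table term then takes up the lone second-table library, so the estimate of either fit comes from the first table, as in the fit of that table alone (-0.14).

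**Figure D3:**
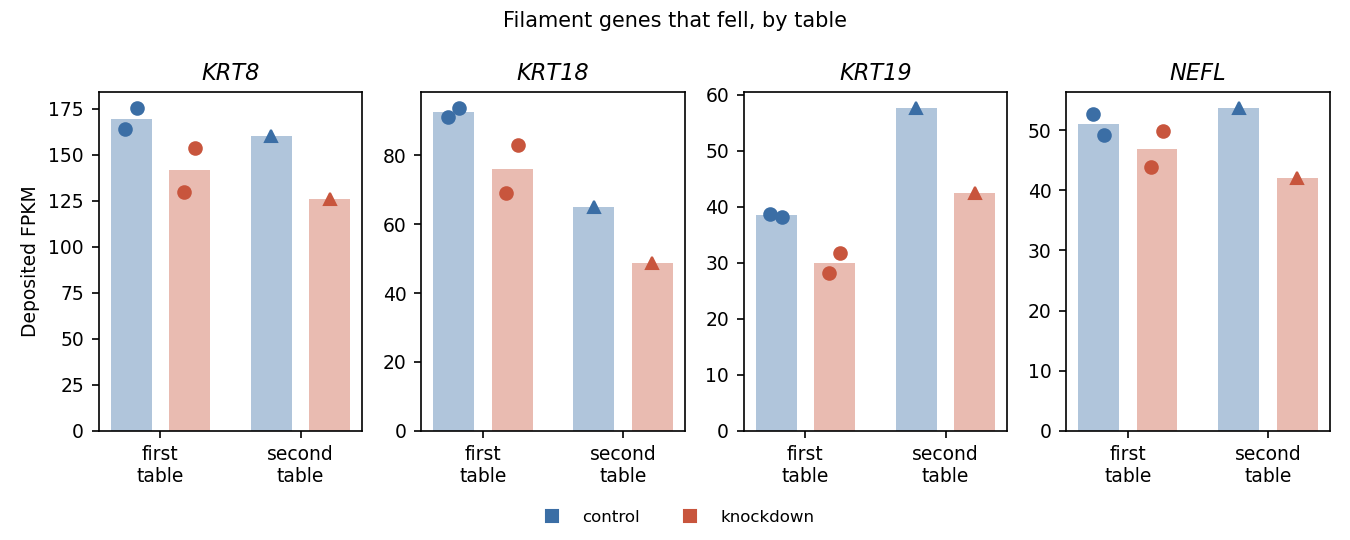
Deposited FPKM of KRT8, KRT18, KRT19 and NEFL in each library, by table; bars start at 0 and show the mean of 2 libraries in the first table and the value of 1 library in the second. For the 3 keratins each knockdown point is below each control point of its table, and for NEFL knockdown replicate 2 in the first table (49.9) is above control replicate 2 (49.2).

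VIM (ENSG00000026025, chromosome 10, 17228241 to 17237593, plus strand), the mesenchymal filament gene, had 158, 150 and 172 CPM in the controls. After knockdown it had 158, 177 and 143 CPM. The groups overlapped, and the log2 fold change was -0.01 (standard error 0.06, 95% interval -0.13 to 0.12, edgeR adjusted p = 0.981). The tables differed in sign for VIM, with 0.11 within the first and -0.26 within the second. The interaction of table and knockdown did not pass for VIM (-0.38, unadjusted p = 0.00364, edgeR adjusted p = 0.986) and was called for 0 of the 8 members; over all genes 0.00734% were called. At an unadjusted p under 0.05, the interaction was found for 1 of the 8, VIM, and for 628 of the 13629 genes tested.

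NES (ENSG00000132688, chromosome 1, 156668763 to 156677407, minus strand) had 39.9, 43.7 and 54.4 CPM in the controls against 38.8, 46.1 and 44.8 CPM after knockdown, and the groups overlapped. Its log2 fold change was -0.08 (95% interval -0.25 to 0.09, edgeR adjusted p = 0.741). KRT10 was the sole tested member with a positive value, 0.17 (95% interval -0.05 to 0.40, edgeR adjusted p = 0.519), from 20.4, 15.2 and 23.5 CPM in controls to 18.5, 20.5 and 28.0 CPM after knockdown. The interval of KRT10 does not reach the estimates of KRT8, KRT18 and KRT19, and neither do those of VIM and NES; differences between genes were not tested.

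NEFM had 1.59, 1.50 and 1.42 CPM in the controls. After knockdown it had 1.65, 2.01 and 0.544 CPM, the last from 6 reads. At that depth the 95% interval ran from -0.88 to 0.66 on the log2 scale, so a change as large as that of the keratins was not detectable. NEFH had 3, 7 and 8 reads in the knockdowns, against 8, 7 and 4 in the controls. INA had 6, 1 and 7 knockdown reads, against 12, 10 and 3. With the count filter removed, the adjusted p in edgeR was 0.999 for NEFH and 0.779 for INA.

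**Figure D4:**
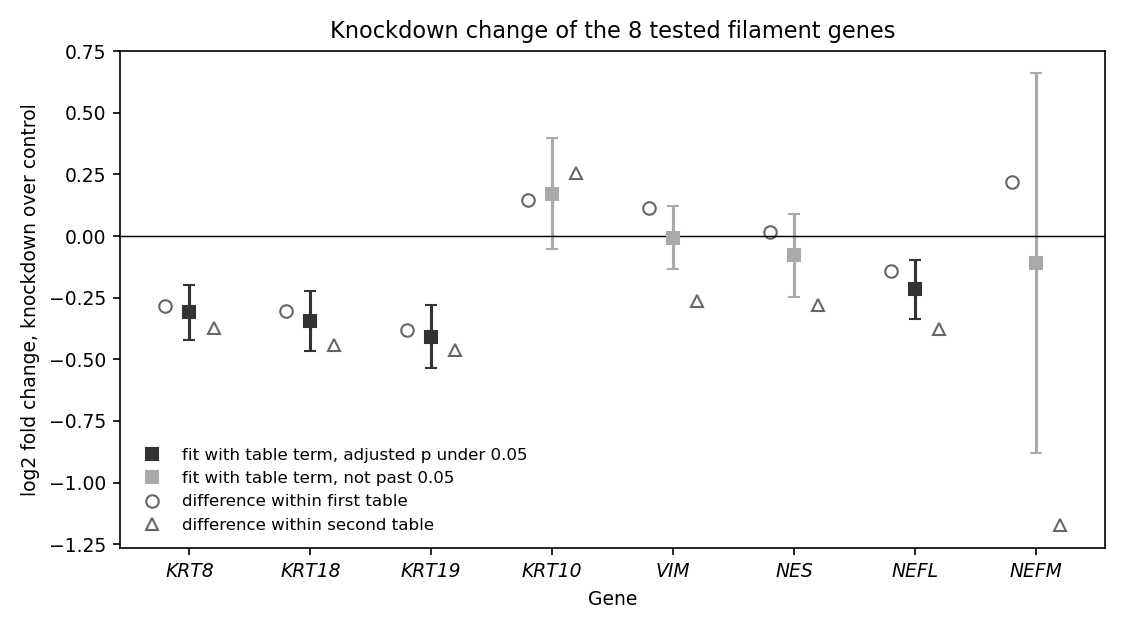
Log2 fold change of the 8 tested genes, knockdown over control; squares are the edgeR estimate with the table term and its 95% interval, dark where the adjusted p is under 0.05, circles and triangles the differences within the first and the second table. KRT8, KRT18, KRT19 and NEFL lie below 0 in both tables, KRT10 above 0 in both, and VIM, NES and NEFM on either side.

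The calls depended on the table term. When edgeR was fitted on the group alone, the adjusted p was 1.00 for each of the 8 members and 0 of 13629 genes were called, with 327 at an unadjusted p under 0.05. The log2 fold changes were nearly the same, -0.31 for KRT8, -0.33 for KRT18 and -0.41 for KRT19, and the standard errors were 0.10, 0.21 and 0.20. The unadjusted p was 0.0129 for KRT8, 0.143 for KRT18, 0.0653 for KRT19 and 0.0456 for NEFL. The 13 other alternatives, which keep the table term, replace it with a block or use the first table alone, left KRT8, KRT18 and KRT19 past the threshold.

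The tables themselves differed in the keratin mixture. With the group in the fit, KRT18 was lower in the second table (log2 difference -0.59, standard error 0.07, edgeR adjusted p = 1.94e-09) and KRT19 was 1.45-fold higher (log2 difference 0.54, standard error 0.07, adjusted p = 1.88e-08). KRT10 (0.46, adjusted p = 0.00175) and NES (0.23, adjusted p = 0.0341) were also higher there, and KRT8 (-0.14), VIM (-0.03) and NEFL (-0.05) did not pass. The 4 calls among 8 members compare with 38.2% of all genes called between the tables, 18.5% higher and 19.7% lower in the second. The NES call ended when control replicate 1 (edgeR adjusted p = 0.120), knockdown replicate 1 (0.0864) or the control of the second table (0.637, log2 difference 0.10) was left out, and in DESeq2 (0.106). That of KRT10 ended when the second table's knockdown was left out (0.0881), and KRT8 passed without control replicate 1 (0.00878), without knockdown replicate 1 (0.0152) and with no count filter (0.0236).

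Ratios within a library show the same division without scaling between libraries. Per length, the KRT18 to KRT19 ratio was 2.36, 2.45, 2.46 and 2.62 in the first table's libraries and 1.13 and 1.14 in the control and knockdown libraries of the second. The KRT8 to KRT18 ratio was 1.80 to 1.88 in the first table and 2.47 and 2.59 in the second. KRT18 and KRT19 were then summed, without the type I chains KRT10 and KRT17. The ratio of KRT8 to this sum stayed between 1.26 and 1.38 in all 6 libraries. The second table thus held less KRT18 and more KRT19 per KRT8, in the control and in the knockdown alike.

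Across the groups, the ratios of KRT8 to KRT18 and of KRT18 to KRT19 differed more between the tables than between the groups of a table. KRT8 to VIM was 5.38, 6.14 and 4.86 among controls, against 4.22, 4.51 and 4.50 after knockdown; within the second table it went from 4.86 to 4.50. KRT18 to VIM was 2.998, 3.28 and 1.97 among controls, against 2.25, 2.44 and 1.74 after knockdown, and the groups overlapped. NEFL to VIM was 1.73, 1.72 and 1.63 among controls, against 1.43, 1.47 and 1.50 after knockdown. The groups thus lay apart for NEFL to VIM too, not for the keratin KRT8 alone. How often ratios of other genes part the groups was not examined. KRT8 to NEFL was 3.11, 3.56 and 2.99 among controls, against 2.96, 3.07 and 2.99 after knockdown, which overlapped. The 4 keratins summed stood 5.41 to 6.29 times above the 4 neuronal filament genes in the controls and 5.30 to 5.48 times in the knockdowns. KRT8 kept 40.8% to 43.8% of the family's summed FPKM in all 6 libraries. The share of VIM was 7.13% to 8.44% in the controls and 9.06% to 9.67% in the knockdowns. Its mean level was near the same, 30.7 FPKM in controls and 30.9 in knockdowns. The family's sum was lower after knockdown, 309 to 371 FPKM against 391 to 401 in the controls. The larger share is therefore not a rise of VIM itself. These ratios and shares were not tested, and their size depends on the gene length used. With the transcript length the control means were 653 FPKM for KRT8 and 50.1 for NEFL, against 167 and 51.9 with the deposited length. Under the transcript length the keratins thus stand further above NEFL.

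**Figure D5:**
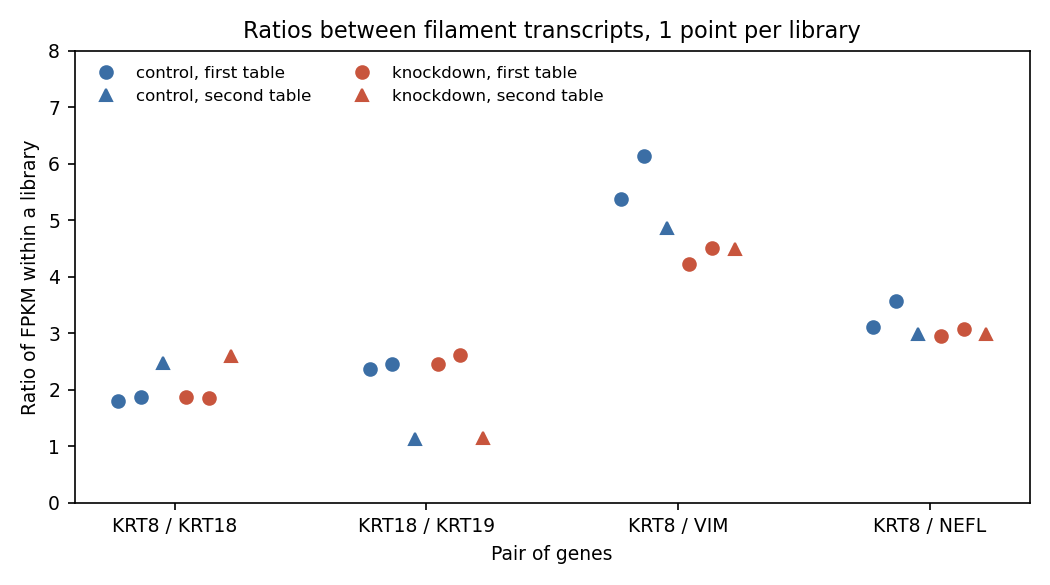
Ratios of FPKM between filament genes within each library, 1 point per library, on an axis from 0. KRT18 to KRT19 divides by table (2.36 to 2.62 against 1.13 and 1.14), and KRT8 to VIM lies higher in the 3 controls (4.86 to 6.14) than in the 3 knockdowns (4.22 to 4.51).

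Of 179 genes in the 10 lists of filament and identity genes 85 were tested and 3 passed, ESRP2, SOX2 and L1CAM, a count near the 2.47% of all genes tested that passed in either direction. ESRP2, which drives epithelial splicing, fell (log2 fold change -0.39, standard error 0.09, edgeR adjusted p = 0.00665), from 41.8, 38.0 and 32.0 CPM in controls to 30.6, 29.6 and 24.9 CPM after knockdown, without overlap. It was the 1 of 13 tested epithelial genes to pass, and the list's median was -0.03. The count of 3 became 1 when either library of the second table was left out, which leaves the estimate to the first table, and 5 without knockdown replicate 2. Among 18 neural genes the progenitor factor SOX2 rose (0.39, edgeR adjusted p = 0.00457) and the neural adhesion gene L1CAM fell (-0.52, edgeR adjusted p = 0.0286), with a median of 0.07. The levels of SOX2 were 26.9, 28.8 and 45.0 CPM in controls and 35.0, 36.3 and 60.8 CPM after knockdown. The most abundant neural gene, UCHL1, had -0.16 (edgeR adjusted p = 0.111).

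No linker or desmosome gene passed among 17 tested, with DSP at -0.18 (edgeR adjusted p = 0.0688) and a list median of -0.05. No gene passed among the 2 type I and 1 type II keratins tested outside the members, KRT17 (-0.02), KRT222 (0.45) and KRT80 (-0.84, edgeR adjusted p = 0.199). The same held for the 5 other filament genes, with SYNM at -0.11, for 8 kidney genes (median 0.12), 13 mesenchymal genes (median 0.05), 6 chromaffin and sympathetic genes (median 0.15) and 2 blood and endothelial genes (median 0.04). The summed FPKM of the epithelial list was 32.7 to 40.2 in the controls and 30.9 to 35.9 in the knockdowns, and that of the mesenchymal list 69.6 to 87.5 and 71.5 to 88.9. The neural list summed to 296 to 298 and 273 to 296, most of it UCHL1, with means of 225 and 205 FPKM. The part of cell identity in the keratin result was not tested.

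By pattern over the 6 libraries, centred on each table's mean, the genes most like KRT18 were FDFT1 (Pearson's r = 0.9999), which makes squalene, TUBA1C (0.9996), an alpha-tubulin gene, and RDH11 (0.9992), a retinal reductase. Their log2 fold changes were -0.25, -0.22 and -0.47, a direction that the choice by likeness to KRT18 fixes. Within the family KRT18 followed KRT8 (0.993), KRT19 (0.980) and NEFL (0.935), so the likeness was not confined to keratins. Of 11332 genes with at least 5 CPM, 342 had an r over 0.95 with KRT18, so a high r over these 6 points was not rare. For VIM the most alike were CCPG1 (0.992), HSP90B1 (0.990) and ZNF830 (0.989), none of which passed, and 52 genes had an r over 0.95. The correlations share the libraries and their depth and are a description.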

How the data were processed

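RNA from 6 HEK293A libraries was read by sequencing. The authors deposited raw counts of reads for every gene. HISAT2, HTSeq and the build hg38 appear in the submitters' processing notes, without versions. The deposited FPKM values equalled count over gene length and library total, to a relative deviation of at most 1.6e-06, and were used for levels only. The 2 tables (19987 and 19973 genes) were joined by Ensembl identifier. Changes between groups were tested in R 4.3.3 by edgeR 4.0.16 (TMM factors, filterByExpr, the quasi-likelihood test, table and group as terms) on 13629 genes with Benjamini-Hochberg adjustment and a threshold of 0.05; within-table differences are of log2 CPM with a prior count of 2. DESeq2 1.42.0 and limma 3.58.1 were alternatives. The fit was tested on simulated data. No pair of libraries of a group agreed within sampling noise (chi-square per gene 3.52 to 19.6 over genes with at least 20 reads). The members and lists were chosen with earlier results of these data known. Named genes are the members, the list genes past the threshold, the 2 most abundant of each list, the 3 most like KRT18 and VIM, and the siRNA targets. Some named items are not reported here.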

Additional observations from a re-analysis of the deposited data

How the results depend on the processing

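With the group as the sole term 0 members and 0 list genes passed. The other alternatives (RLE factors, no count filter, at least 5 CPM, DESeq2, limma-voom, the first table alone, a replicate block, each library left out) gave log2 fold changes of -0.40 to -0.25 for KRT8, -0.45 to -0.28 for KRT18 and -0.48 to -0.37 for KRT19, with adjusted p of at most 0.0426, 0.0300 and 0.00670. NEFL passed in 7 of 13, at -0.31 to -0.14 and adjusted p of 0.00378 to 0.480; DESeq2 gave 0.102 and the first table alone 0.455. Leaving out either library of the second table also leaves the estimate to the first table, so these 3 of the 13 are not separate checks. VIM, NES, KRT10 and NEFM passed in none of those that tested them. In the first table, the deviations of same-numbered libraries from their group means had a correlation of 0.0118 over genes. With so few libraries this cannot tell whether same-numbered libraries were prepared together. With the numbers as a replicate block 4 members and 4 list genes passed, 363 of all genes against 336, and no call on a member changed. The count of 3 list genes was 1 in the first table alone, 5 without a count filter and 1 to 5 with 1 library left out; the cause was not tested. DESeq2 called 186 of 9665 genes and the first table alone 154 of 13672. TPM raised all levels and put 8 members above 1. NEFM, NEFH and INA are limited by depth.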
